A study of Homo sapiens with 12 samples.

Results

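The MYC, MAX and antagonist network was followed through 10 genes of the deposited expression tables, MYC, MYCL, MAX, MXD1, MXD3, MXD4, MXI1, MNT, MGA and MLX, out of 33331 genes listed. They were taken by gene symbol from both tables, and every one of the 10 was listed in both and passed the filter on low counts in each comparison. The cells were SW480, a human colorectal adenocarcinoma line, sequenced as polyadenylated RNA in 4 groups of 3 libraries. In 2 groups an ALDH1B1 knockout clone carried a construct for either EGFP, a fluorescent protein that served as the control, or ALDH1B1, a mitochondrial enzyme that oxidises aldehydes to acids. In the other 2 groups the parental line received DMSO, the solvent, or 2 µM of an inhibitor called ALDH1B1-selective, each for 24 h. All cells grew in RPMI-1640 medium with fetal bovine serum. The knockout rests on 1 clone, and no DMSO exposure is given for it. Against the parental line, what is particular to that clone cannot be told apart from the loss of ALDH1B1. The 2 constructs are compared within that clone, and whether other clones respond alike was not tested. The series text speaks of 3 biological replicates per condition, and p-values measure the spread between those cultures.

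MYC and its relative MYCL are transcription factors that bind DNA as dimers with MAX, a partner that the whole network shares, and activate genes of ribosome assembly, nucleotide synthesis and the cell cycle. The proteins of MXD1, MXD3, MXD4, MXI1 and MNT also pair with MAX, bind the same E-box sequence and recruit SIN3 and NCOR corepressors, so they compete with MYC for MAX and for sites. MGA is a large MAX partner that works in a Polycomb repressive complex, and MLX is a MAX-like protein that pairs with the glucose-responsive factors MondoA (MLXIP) and ChREBP (MLXIPL) and with some MXD proteins. In colorectal cancer MYC is known as a target of Wnt signalling through β-catenin and TCF factors.

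The E-box that these dimers prefer, CACGTG, reads the same on both strands. It was searched for in RefSeq promoter windows of build GRCh38.p14, which run from 250 bases before to 50 bases after each annotated gene start. Of the members, 9 have such a window in the table used and MYC has no entry there. The motif occurred in the windows of 3 of those 9, MXD4, MNT and MLX, against 8.77% of 27305 genes with a window, and these 3 windows are shown because they hold the motif of the network's own dimers. Sequences are given 5′ to 3′ on the gene's strand with the E-box in capitals, which is a match of letters and not a measured site.
MXD4, chr4:2262060-2262359, minus strand: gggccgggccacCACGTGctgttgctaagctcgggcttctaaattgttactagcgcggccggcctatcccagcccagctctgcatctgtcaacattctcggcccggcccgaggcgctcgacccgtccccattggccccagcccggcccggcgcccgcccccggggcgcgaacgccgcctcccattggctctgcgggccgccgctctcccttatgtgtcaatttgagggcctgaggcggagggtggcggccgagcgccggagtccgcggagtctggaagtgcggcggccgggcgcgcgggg
MNT, chr17:2401011-2401310, minus strand: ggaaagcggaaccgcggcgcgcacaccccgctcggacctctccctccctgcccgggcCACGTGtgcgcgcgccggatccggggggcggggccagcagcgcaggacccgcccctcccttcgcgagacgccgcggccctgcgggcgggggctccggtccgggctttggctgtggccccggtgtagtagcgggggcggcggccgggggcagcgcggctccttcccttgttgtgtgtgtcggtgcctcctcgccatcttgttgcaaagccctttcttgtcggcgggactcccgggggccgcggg
MLX, chr17:42566850-42567149, plus strand: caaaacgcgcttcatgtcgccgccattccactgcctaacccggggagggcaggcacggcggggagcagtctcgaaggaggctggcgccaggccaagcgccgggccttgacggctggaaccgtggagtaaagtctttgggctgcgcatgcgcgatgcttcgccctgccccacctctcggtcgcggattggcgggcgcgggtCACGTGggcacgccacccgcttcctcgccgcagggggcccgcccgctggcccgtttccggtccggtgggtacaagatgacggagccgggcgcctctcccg
Counted from 1 at the 5′ end of the window, the E-box began at position 13 in MXD4, 58 in MNT and 201 in MLX. No window of MYCL, MAX, MXD1, MXD3, MXI1 or MGA held these letters.

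Libraries held between 32617089 and 39018926 counted reads, and levels are given in CPM, a read count scaled to a common library size after TMM normalisation over the 12 libraries, where 1 CPM stands for 32.6 to 39.0 reads before that normalisation. ALDH1B1 itself was at 101 ± 3.20 CPM in the clone with ALDH1B1, 18.4 ± 0.437 CPM with EGFP, 49.5 ± 3.83 CPM in the parental line with DMSO and 50.4 ± 0.529 CPM with the inhibitor (SD, n = 3 each). The ALDH1B1 clone therefore stood above the parental level, and loss and excess of ALDH1B1 cannot be told apart in the comparison within the clone. EGFP replicate 3 and DMSO replicate 2 stood apart from the other libraries of their groups, with a chi-square per degree of freedom of 9.85 and 14.5 for the first and 9.54 and 6.47 for the second, where the remaining pairs of these groups were at 3.77 and 3.50. All inhibitor pairs were also spread, at 7.35 and 7.53 for inhibitor replicate 1 and 5.33 for the remaining pair. The ALDH1B1 pairs were at 3.01 to 4.90. Of 12 epithelial and colorectal markers 11 were listed in both tables, with CDX1 missing and CEACAM5 under 0.1 CPM in every group, and their summed level was 7333 to 8885 CPM. Within that list genes went both ways between the clone and the parental line: VIL1, which encodes the brush border protein villin, was at 344 CPM with DMSO and at 0.145 and 0.472 CPM in the clone with ALDH1B1 and EGFP, and EPCAM was at 767 CPM against 135 and 122 CPM, while AXIN2, a Wnt target, was at 307 CPM against 701 and 689 CPM and CDX2, an intestinal transcription factor gene, at 25.2 CPM against 49.99 and 61.3 CPM. The 12 libraries carry the same cell line label, and the origin of these differences was not tested.

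On hg38 with GENCODE 29 gene models the members lie on 9 chromosomes. MYC (ENSG00000136997) is at chr8:127735434-127741434, MYCL (ENSG00000116990) at chr1:39895426-39902256, MAX (ENSG00000125952) at chr14:65006174-65102695 and MXD1 (ENSG00000059728) at chr2:69897688-69942945. MXD3 (ENSG00000213347) is at chr5:177301461-177312757, MXD4 (ENSG00000123933) at chr4:2247432-2262294 and MXI1 (ENSG00000119950) at chr10:110207605-110287365. MNT (ENSG00000070444, chr17:2384060-2401118) and MLX (ENSG00000108788, chr17:42567068-42573239) share a chromosome, and MGA (ENSG00000174197) is at chr15:41621224-41773081. MXD3 shares 40.4% of its exon bases with other annotated genes, chiefly PRELID1 on the opposite strand, MLX 18.1%, chiefly PSMC3IP, and MNT 12.2%, chiefly AC006435.1. Neither labels nor headers say whether reads were counted by strand, so MXD3 values are uncertain, while for the other 7 members the share was 4.5% or less.

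MYC was the most abundant member in every group. Levels of different genes were compared as CPM per kilobase of summed exon length, averaged over the 12 libraries. On that scale MYC was at 219 and ranked 129 of 19075 genes, MAX at 18.0 and ranked 2718, and MLX at 9.80 and ranked 4829. The repressor genes followed at 7.25 for MXI1, 6.36 for MXD1, 5.1996 for MXD4, 4.34 for MNT and 3.63 for MXD3, with MYCL at 3.77 and MGA at 2.52. MYC ranked 1 and MAX ranked 2 among the members in each of the 4 groups, whereas MXD1 ranked 9 in both clone groups and 3 in both parental groups. Summed exon length exceeds the annotated principal transcript by unlike amounts. It was 5154 against 1483 nt for MXD3, 5063 against 1688 nt for MYCL, 4430 against 1546 nt for MAX and 6351 against 5587 nt for MXD1. Ranks and ratios between genes therefore depend on the length chosen, and no other length was tried.

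MYC mRNA stood several times higher in the parental line than in the clone. It was at 244, 236 and 228 CPM in the clone with ALDH1B1, at 259, 268 and 264 CPM with EGFP, at 994, 1118 and 1084 CPM in the parental line with DMSO and at 1102, 994 and 1093 CPM with the inhibitor. The 2 clone groups lay apart from each other by a narrow gap, and the parental groups overlapped. In bulk RNA, fewer expressing cells and less RNA per cell cannot be told apart.
MYCL was at 6.51, 6.21 and 5.95 CPM with ALDH1B1, 7.93, 6.77 and 6.10 CPM with EGFP, 28.98, 28.3 and 29.2 CPM with DMSO and 33.6, 34.8 and 34.6 CPM with the inhibitor. Its clone groups overlapped and its parental groups did not.
MAX stayed between 71.6 and 83.8 CPM over all 12 libraries, with overlapping neighbours throughout the order of group means. MYCN, a MYC-family gene that is no member, was at 3.04 CPM with DMSO and at 0.104 and 0.0956 CPM in the clone with ALDH1B1 and EGFP.

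**Figure D1:**
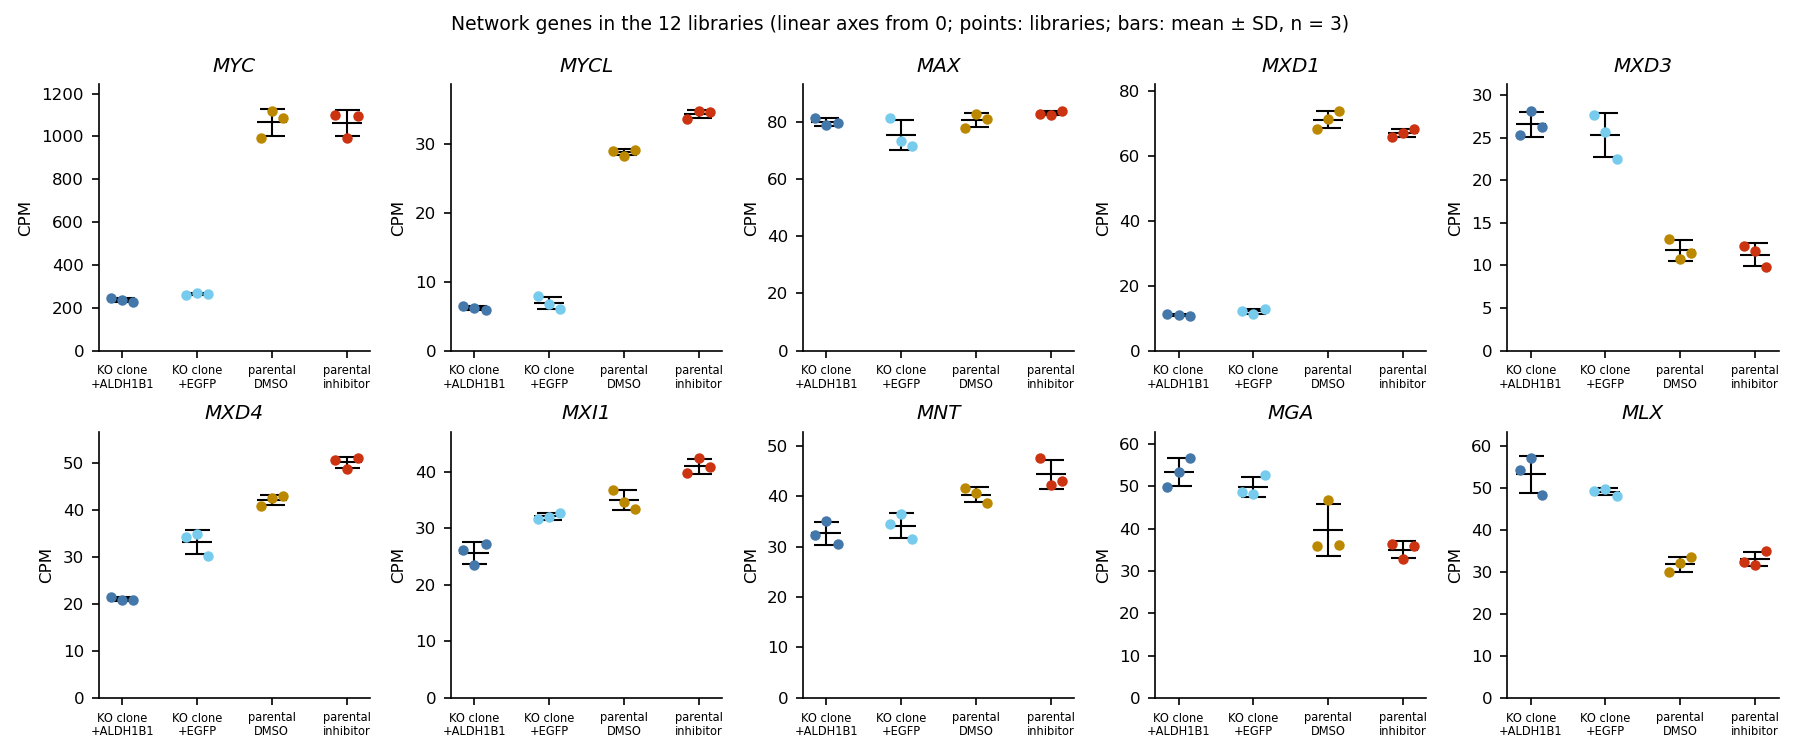
Level of each of the 10 genes in CPM (linear axes starting at 0) in the 4 groups, with 1 point per library and bars for the mean and SD of 3 libraries. MYC, MYCL and MXD1 sit several times higher in the parental line than in the clone, MXD3 and MLX sit lower there, and MAX stays between 71.6 and 83.8 CPM.

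Among the MAX-binding repressors, MXD1 shared the direction of MYC between the lines, and MXD3 went the other way. MXD1, known for its rise when cells stop dividing and mature, was at 11.3, 10.9 and 10.7 CPM with ALDH1B1, 12.2, 11.4 and 12.9 CPM with EGFP, 68.6, 71.5 and 73.9 CPM with DMSO and 65.97, 67.3 and 68.3 CPM with the inhibitor. Its order of groups, clone with ALDH1B1, clone with EGFP, inhibitor and DMSO, had no overlap between neighbours, although the gap within each line was small.
MXD3, the MXD gene tied to S phase, was at 25.3, 28.1 and 26.2 CPM with ALDH1B1, 27.6, 25.7 and 22.5 CPM with EGFP, 13.2, 10.7 and 11.5 CPM with DMSO and 12.3, 11.7 and 9.77 CPM with the inhibitor. Its 2 clone groups overlapped, as did its 2 parental groups. PRELID1, which overlaps it, was at 193, 169, 127 and 158 CPM in the same order of groups.

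MXD4 and MXI1 rose through the same order of groups, lowest in the clone with ALDH1B1 and highest with the inhibitor. MXD4 was at 21.6, 20.8 and 20.9 CPM with ALDH1B1, 34.4, 35.0 and 30.4 CPM with EGFP, 41.0, 42.6 and 42.9 CPM with DMSO and 50.8, 48.8 and 51.1 CPM with the inhibitor. All 4 of its groups lay apart.
MXI1 was at 26.1, 23.5 and 27.2 CPM with ALDH1B1, 31.5, 32.0 and 32.8 CPM with EGFP, 36.8, 34.6 and 33.4 CPM with DMSO and 39.7, 42.3 and 40.9 CPM with the inhibitor. Its 4 groups also lay apart, with the EGFP and DMSO groups close together.
MNT, the repressor expressed in most proliferating cells, ranged from 30.4 to 36.5 CPM in the clone and from 38.6 to 47.5 CPM in the parental line. MGA ranged from 48.1 to 56.6 CPM in the clone and from 32.8 to 46.8 CPM in the parental line, where DMSO replicate 2 alone exceeded 36.5 CPM. MLX ranged from 48.1 to 57.0 CPM in the clone and from 29.9 to 34.8 CPM in the parental line.

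Within the clone, the EGFP libraries, which lack added ALDH1B1, had higher MXD4, MXI1 and MYC mRNA than the ALDH1B1 libraries. MXD4, from 21.1 ± 0.425 to 33.3 ± 2.53 CPM (SD, n = 3), rose by 0.67 on the log2 scale (SE 0.07, 1.59-fold; edgeR quasi-likelihood test, Benjamini-Hochberg adjusted p = 2.3e-05). MXI1, from 25.6 ± 1.94 to 32.1 ± 0.615 CPM, rose by 0.34 (SE 0.07; edgeR adjusted p = 0.003). MYC, from 236 ± 7.89 to 263 ± 4.57 CPM, rose by 0.17 (SE 0.04, 1.12-fold; edgeR adjusted p = 0.013). The calls of MXD4 and MXI1 held in all 12 alternatives, while that of MYC was lost without ALDH1B1 replicate 2 (0.17, edgeR adjusted p = 0.081) or without ALDH1B1 replicate 3 (0.14, edgeR adjusted p = 0.065). In all, 3 of 10 members were called and all 3 were higher, with 17.6% of 17404 genes called, 8.36% of them higher and 9.22% lower.
The remaining 7 did not pass. MXD1 was at 0.16 (SE 0.08; edgeR adjusted p = 0.2) and MYCL at 0.17 (SE 0.12), with MNT at 0.08, MXD3 at -0.06, MAX at -0.07, MGA at -0.09 and MLX at -0.11. The median over the members was 0.12, against 0.01 over all genes tested. Beside these values, fibroblast markers summed to 26.2 to 28.0 CPM with EGFP and 21.2 to 22.6 CPM with ALDH1B1. Most of each sum came from COL1A1 and PDGFRB, while COL3A1, DCN and FAP were under 0.1 CPM. PDGFRB was at 11.5 CPM with EGFP and 6.12 CPM with ALDH1B1, and COL1A1 at 14.8 and 15.3 CPM, slightly the other way. The 6 endothelial markers listed in both tables summed to 8.05 to 8.87 CPM with EGFP and 6.86 to 8.22 CPM with ALDH1B1, chiefly from ESAM, with KDR, TEK and PECAM1 under 0.1 CPM. The 8 leukocyte markers summed to at most 2.95 CPM. The part of these markers in the member values was not tested. In the authors' deposited table the same 3 members passed an adjusted p of 0.05, with log2 fold changes of 0.66 for MXD4, 0.33 for MXI1 and 0.16 for MYC.

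In the parental line, the inhibitor libraries had higher MYCL and MXD4 mRNA than the DMSO libraries, by small amounts, and MYC did not differ beyond its spread. MYCL, from 28.8 ± 0.461 to 34.3 ± 0.632 CPM (SD, n = 3), rose by 0.24 (SE 0.06, 1.18-fold; edgeR adjusted p = 0.04). MXD4, from 42.2 ± 1.05 to 50.2 ± 1.23 CPM, rose by 0.24 (SE 0.05, 1.18-fold; edgeR adjusted p = 0.024). Neither call was stable. That of MYCL was lost whichever of the 6 libraries was left out (edgeR adjusted p from 0.051 to 0.16). That of MXD4 was lost without DMSO replicate 1 (0.22, edgeR adjusted p = 0.062), DMSO replicate 3 (0.25, 0.1), inhibitor replicate 1 (0.22, 0.05), inhibitor replicate 3 (0.26, 0.075) or the inhibitor library that carries no number (0.23, 0.082). Both were also lost with an offset for transcript length and GC content (edgeR adjusted p = 0.11 for MYCL and 0.098 for MXD4). Over the 13 alternatives the changes themselves ran from 0.18 to 0.25 for MYCL and from 0.17 to 0.26 for MXD4.
The count was thus 2 of 10 members called, both higher, with 3.99% of 17848 genes called, 1.89% higher and 2.1% lower. MXI1 was at 0.22 (SE 0.06; edgeR adjusted p = 0.065) and passed in 4 of 13 alternatives. MYC was at -0.02 (SE 0.05; edgeR adjusted p = 0.89), MAX at 0.03, MXD1 at -0.10, MXD3 at -0.08, MNT at 0.12, MGA at -0.19 and MLX at 0.04, none of them called. The authors' deposited table gave 0.24 for MXD4 and 0.24 for MYCL, with adjusted p of 0.011 and 0.029, and no other member under 0.05. The median was 0.03 over the members and -0.0019 over all genes tested.

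**Figure D2:**
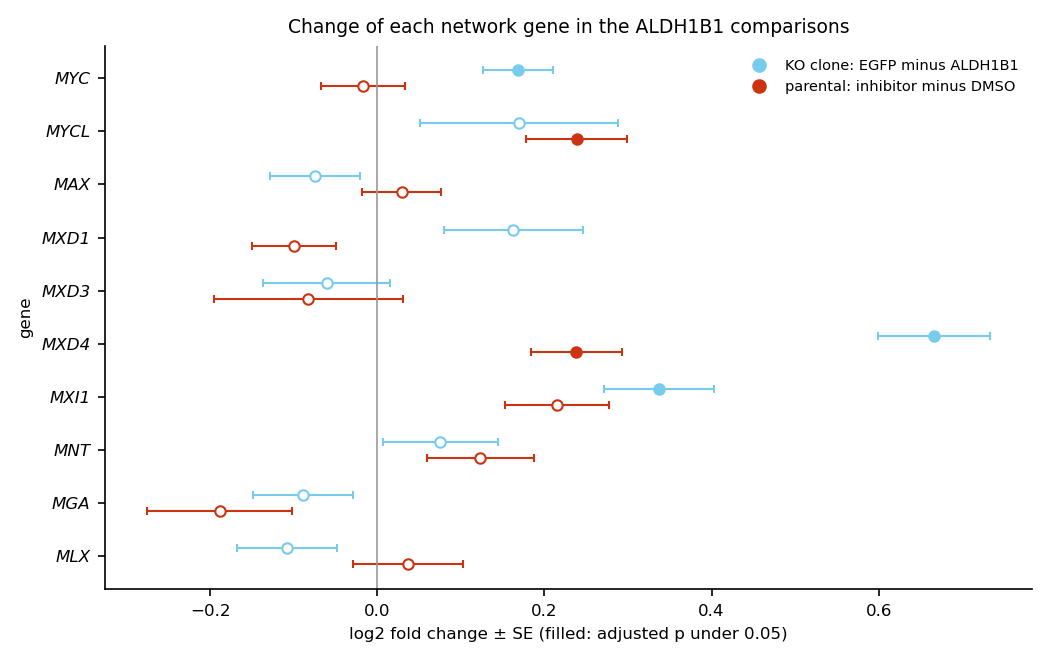
Log2 fold change of each gene, with SE, for EGFP minus ALDH1B1 in the knockout clone and for inhibitor minus DMSO in the parental line, where filled points passed an edgeR adjusted p of 0.05. MXD4 is filled in both, at 0.67 and 0.24, MXI1 and MYC only in the clone, and MYCL only with the inhibitor, where a filled and an open point of 1 gene are not thereby shown to differ.

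The difference between the 2 comparisons was tested directly on the 12 libraries, as the clone effect minus the inhibitor effect. MXD4 alone passed, at 0.40 (SE 0.09; edgeR adjusted p = 0.01), and it did so in all 16 alternatives. That is 1 of 10 members, with 5.11% of 19075 genes called. For MYC the difference was 0.16 (SE 0.07; edgeR adjusted p = 0.23), for MXD1 0.24 (SE 0.09; edgeR adjusted p = 0.13) and for MLX -0.17 (SE 0.09; edgeR adjusted p = 0.33). MYC passed with an offset for transcript length and GC content (0.26, edgeR adjusted p = 0.02) and MXD1 passed without EGFP replicate 2 (0.32, edgeR adjusted p = 0.049). The calls of MYCL and MXI1 in a single comparison therefore do not show a difference between the comparisons: their differences were -0.09 (SE 0.12) and 0.10 (SE 0.09).

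The clone and the parental line differed most in MYC, MYCL, MXD1 and MXD3, with MXD3 uncertain because of the exon bases it shares. Against DMSO the EGFP clone had lower MYC, at -2.02 (SE 0.05, 4.05-fold lower; edgeR adjusted p = 2.7e-20), MYCL, at -2.05 (SE 0.09), and MXD1, at -2.55 (SE 0.06, 5.86-fold lower; edgeR adjusted p = 9e-21). MXD4 was lower by a small amount, at -0.34 (SE 0.06), and so was MNT, at -0.24 (SE 0.07). MXD3 was higher at 1.10 (SE 0.10, 2.14-fold), MLX at 0.62 (SE 0.07, 1.54-fold) and MGA at 0.33 (SE 0.08). MAX was at -0.10 (SE 0.05; edgeR adjusted p = 0.1) and MXI1 at -0.12 (SE 0.07; edgeR adjusted p = 0.094), both not called, although MAX passed without EGFP replicate 1 (-0.18, edgeR adjusted p = 0.0083), and both passed with the offset for transcript length and GC content (MAX at -0.13, edgeR adjusted p = 0.015, and MXI1 at -0.14, edgeR adjusted p = 0.043).
With 8 of 10 members called, 3 higher and 5 lower, the share was near the background of 75.5% of 19075 genes called, 37.8% higher and 37.7% lower, and nothing is read from the count.
Against DMSO the ALDH1B1 clone had lower MXD4, at -0.9986 (SE 0.06), and lower MXI1, at -0.45 (SE 0.07; edgeR adjusted p = 1.7e-06). MYC was at -2.17 (SE 0.05, 4.51-fold lower), MYCL at -2.21, MXD1 at -2.70, MNT at -0.30, MXD3 at 1.17, MLX at 0.74 and MGA at 0.43, all called, and MAX at -0.01 was not. That made 9 of 10, 3 higher and 6 lower, where 75.3% of all genes were called, 38% higher and 37.4% lower. MYC, MYCL and MXD1 were thus low against DMSO with either construct. Both comparisons use the same DMSO libraries, and clone, construct and DMSO exposure differ together in them, so their parts cannot be told apart.
With the offset for transcript length and GC content MXD4 in the EGFP clone moved to -0.62 and MNT to -0.54 and -0.58, with no call lost. Fibroblast markers summed to 4.67 to 6.13 CPM in the parental line against 21.2 to 28.0 CPM in the clone, and endothelial markers to 1.21 to 1.89 CPM against 6.86 to 8.87 CPM. The endothelial difference was carried by ESAM, at 0.150 CPM with DMSO, 0.0719 with the inhibitor, 6.84 with EGFP and 6.51 with ALDH1B1. VWF was at 1.04 to 1.29 CPM in the 4 group means, and PECAM1 and TEK were lower in the clone. The part of these differences in the member values was not tested.

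**Figure D3:**
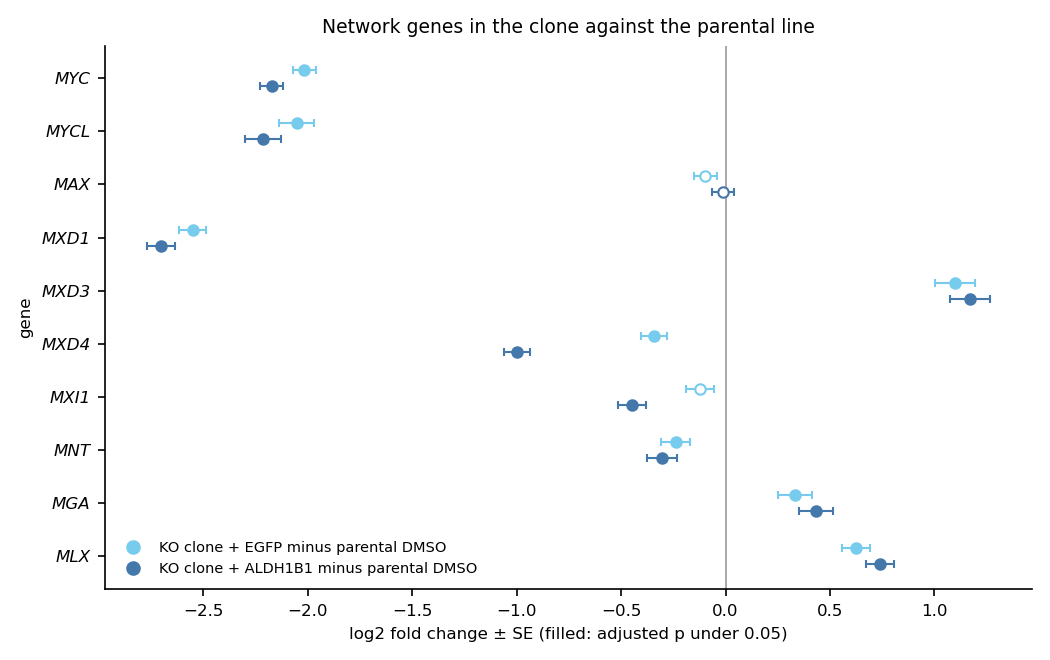
Log2 fold change of each gene, with SE, in the knockout clone with EGFP or with ALDH1B1 against the parental line with DMSO, where filled points passed an edgeR adjusted p of 0.05. MYC, MYCL and MXD1 lie at -2.02 or lower in both, MXD3 and MLX lie above 0 and MAX is open in both, at -0.10 and -0.01, and both series share the DMSO libraries.

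Genes around several members differed between the lines as well, in windows that were chosen after values had been seen. Within 2 Mb of MYC, 8 genes averaged at least 1 CPM, and in the EGFP clone 3 were higher and 5 lower than with DMSO. Over all genes tested, without that floor of 1 CPM, 37.8% were higher and 37.7% lower in the same comparison. CASC19, a long noncoding RNA gene 0.663 Mb upstream, was at 29.5 CPM with DMSO and at 0.207 and 0.126 CPM with EGFP and ALDH1B1. FAM84B, 1.183 Mb upstream, was at 221 against 28.0 and 28.2 CPM, and PVT1, a long noncoding RNA gene 0.059 Mb downstream, at 58.2 against 32.3 and 33.2 CPM. Others were higher in the clone: LINC00861, 1.813 Mb upstream, was at 0.162 CPM with DMSO and 13.8 and 13.7 CPM in the clone, and CASC8, 0.446 Mb upstream, at 5.51 against 14.5 and 13.7 CPM. Within the clone and with the inhibitor no gene of that window was called. Outside it, ASAP1, 2.317 Mb downstream, was at 26.2 CPM with DMSO against 204 and 191 CPM.
Around MXD1, 29 of 31 genes within 2 Mb were lower in the EGFP clone and 1 was higher, with a median of -0.84, against -2.55 for MXD1. Around MLX, 76 of 104 were higher and 13 lower, with a median of 0.83, and MLX itself was at 0.62. Around MNT, on the other arm of the same chromosome, 45 of 58 were higher and 2 lower, with a median of 0.59, while MNT was at -0.24. For MXD3 the neighbours were balanced, at 16 higher and 15 lower of 47, with a median of -0.0036. Those of MYCL were 21 higher and 14 lower of 41, with a median of 0.23, while MYCL was at -2.05. Around MAX 13 were higher and 6 lower of 20, and around MXD4 19 and 33 of 58. The counts were 4 and 3 of 12 for MXI1 and 31 and 23 of 68 for MGA. All these counts stand beside 37.8% higher and 37.7% lower over all genes tested. Whether such regional shifts have a part in the member values was not tested, and no copy number was measured.

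**Figure D4:**
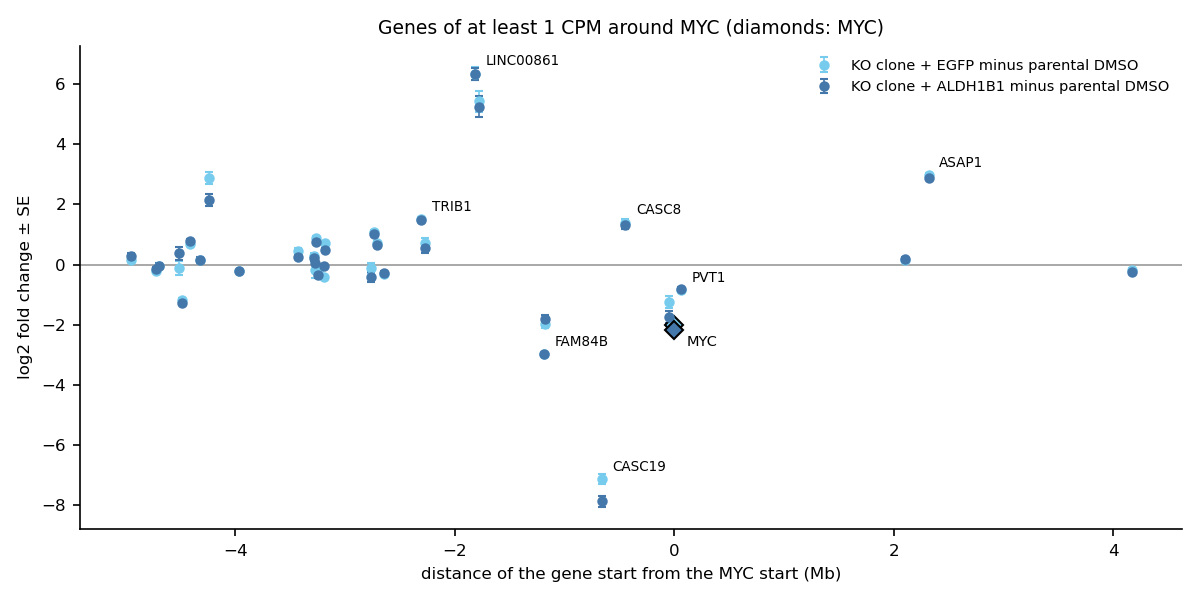
Log2 fold change, with SE, of genes averaging at least 1 CPM within 5 Mb of MYC in the clone with EGFP or ALDH1B1 against the parental line with DMSO, by distance of the gene start from the MYC start in Mb. MYC (diamonds) lies at -2.02 and -2.17 among neighbours that run from -7.87 for CASC19 to 6.35 for LINC00861.

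Set against its partner and its competitors per kilobase, MYC mRNA was less dominant in the clone. The ratio of MYC to MAX was 4.36 ± 0.114 with ALDH1B1, 5.18 ± 0.417 with EGFP, 19.5 ± 0.606 with DMSO and 18.9 ± 0.981 with the inhibitor (SD, n = 3). The ratio of MYC to the sum of MXD1, MXD3, MXD4, MXI1, MNT and MGA was 3.55 ± 0.150, 3.48 ± 0.127, 10.5 ± 0.615 and 9.88 ± 0.519 in the same order. Within each line the ranges of that second ratio overlapped, at 3.41 to 3.71 with ALDH1B1 and 3.35 to 3.61 with EGFP, and at 9.76 to 10.9 with DMSO and 9.28 to 10.2 with the inhibitor. The ranges of MYC to MAX lay apart in the clone, at 4.23 to 4.43 with ALDH1B1 and 4.70 to 5.44 with EGFP. In the parental line they overlapped, at 18.8 to 19.9 with DMSO and 17.8 to 19.6 with the inhibitor. The summed level of MXD1, MXD3, MXD4, MXI1, MNT and MGA was 22.2 ± 0.203 per kilobase with ALDH1B1 and 25.2 ± 0.722 with EGFP. With DMSO that sum was 33.9 ± 0.261 and with the inhibitor 35.8 ± 0.221, and its ranges lay apart within each line.
The make-up of the 4 MXD-family genes, as counted, differed between the lines. MXD1 made 11.2% and 10.4% of their sum in the clone and 41.5% and 36.8% in the parental line, and MXD3 made 33.4% and 26.5% in the clone and 8.45% and 7.60% in the parental line. The MXD3 values, which also enter these sums, are uncertain, because MXD3 shares exon bases with PRELID1 and the strand setting is not given. These are mRNA ratios and shares per kilobase of summed exon length, so their size depends on the length chosen. Protein was not measured.

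Of 9 further bHLHZip genes of the wider network, 8 were tested in the clone, where 2 were higher and 3 lower with EGFP, and none of 9 was called with the inhibitor. MLXIPL (ChREBP), an MLX partner, rose by 0.42 (SE 0.09; edgeR adjusted p = 0.0051) in the clone, from 12.3 ± 0.743 to 16.2 ± 1.59 CPM, and was at 117 ± 13.0 CPM with DMSO. MITF, a melanocyte factor of the same class, rose by 0.37 (SE 0.11), and TFAP4, a MYC target that binds E-boxes, fell by 0.24 (SE 0.06). MLXIP (MondoA), the other MLX partner, was at 78.8 to 89.2 CPM in the 4 group means, with -0.17 in the clone (edgeR adjusted p = 0.023). These shares, 25% higher and 37.5% lower, rest on few genes and single libraries: the lower count of 3 was 0 without ALDH1B1 replicate 2 and 1 without ALDH1B1 replicate 1. The higher count of 2 was 1 with DESeq2 and without ALDH1B1 replicate 1, 2 or 3 or EGFP replicate 3.
Of 20 genes for coactivators that MYC recruits, 8 (40%) were lower with EGFP in the clone, where 9.22% of all genes were, and none higher, with a median of -0.14. RUVBL1 and RUVBL2, ATPases of chromatin complexes, fell by 0.31 (SE 0.05) and 0.28 (SE 0.05), and HCFC1, a host cell factor that binds MYC, fell by 0.30 (SE 0.04; edgeR adjusted p = 0.00025). The count was 4 without ALDH1B1 replicate 2 or EGFP replicate 1 and 5 without ALDH1B1 replicate 1. None of the 20 was called with the inhibitor.
Of 17 SIN3 and NCOR corepressor genes 5 (29.4%) were lower and none higher in the clone, among them SAP30 (-0.28, SE 0.07) and BRMS1 (-0.28, SE 0.06). That count fell to 1 without ALDH1B1 replicate 2, to 2 without ALDH1B1 replicate 1 and to 3 without EGFP replicate 1. The counts in the MGA complex PRC1.6 were near the background of 8.36% higher and 9.22% lower: 1 of 14 (7.14%) was higher, TFDP2 at 0.26 (SE 0.05), and 2 (14.3%) were lower, TFDP1 and WDR5 at -0.15 each, and those 2 calls were lost without ALDH1B1 replicate 1, ALDH1B1 replicate 2 or EGFP replicate 1. No gene of either list was called with the inhibitor.

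Of 23 genes that govern MYC protein stability, 6 (26.1%) were lower and 1 (4.35%) higher in the clone, where 9.22% and 8.36% of all genes were. The list median was -0.10, and HUWE1, a ubiquitin ligase of MYC, fell by 0.32 (SE 0.05; edgeR adjusted p = 0.001) while PLK1, a mitotic kinase, fell by 0.27 (SE 0.04). The count of 6 was 2 without ALDH1B1 replicate 1 or 2, and 10 with the offset for transcript length and GC content. With the inhibitor 3 (13%) were higher, where 1.89% of all genes were, and none lower, with a list median of -0.0097. Among the 3 were STUB1, a ubiquitin ligase, at 0.32 (SE 0.05; edgeR adjusted p = 0.0031), and PPP2R1A, a scaffold of phosphatase PP2A, at 0.21 (SE 0.04). Without DMSO replicate 3 or inhibitor replicate 3 that count was 1.
In the list for the MYC locus and its transcription, 16 genes were tested in the clone and 17 with the inhibitor. In the clone 1 (6.25%) was higher and 1 (6.25%) lower, below the 8.36% and 9.22% of all genes. Over the 12 alternatives the lower count ran from 0 to 5 and the higher count from 0 to 1. TCF7L1, a Wnt pathway transcription factor, was higher with EGFP at 0.27 (SE 0.08), HNRNPK, a protein that binds the MYC promoter, was lower at -0.13 (SE 0.04), and none was called with the inhibitor. Both clone calls were lost without ALDH1B1 replicate 2, ALDH1B1 replicate 3, EGFP replicate 1 or EGFP replicate 2, and that of HNRNPK also without ALDH1B1 replicate 1.

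A majority of the textbook activated targets of MYC were lower in the EGFP clone, where MYC mRNA was higher. Of 66 MYC-activated targets tested, 36 (54.5%) were lower and 2 higher with EGFP, with a median of -0.17 against 0.01 over all genes and 9.22% of all genes lower. HSPE1, a mitochondrial chaperonin gene, fell by 0.71 (SE 0.07; edgeR adjusted p = 2.1e-05), from 93.1 ± 1.86 to 56.3 ± 6.81 CPM, NME1, a nucleoside diphosphate kinase gene, by 0.56 (SE 0.07), and RRP9, a nucleolar RNA-processing gene, by 0.42 (SE 0.06). The 2 that were higher, named after their values were seen, were the cyclin gene CCND2 at 0.58 and the serine synthesis gene PHGDH at 0.15. Over the 12 alternatives the lower count ran from 23 to 45, with 23 without ALDH1B1 replicate 2 and 45 without EGFP replicate 3.
With the inhibitor 7 of 66 (10.6%) were lower and 2 higher, where 2.1% and 1.89% of all genes were, and the median was -0.03. NME1 fell by 0.60 (SE 0.06; edgeR adjusted p = 6.2e-05), HSPE1 by 0.38 (SE 0.07) and NOP16, a nucleolar gene, by 0.26 (SE 0.06). That count was 2 without DMSO replicate 2, DMSO replicate 3 or inhibitor replicate 3 and 3 without inhibitor replicate 1. In the test of the difference 18 of the 66 (27.3%) were lower and 1 (1.52%) higher, where 5.11% of all genes were called in either direction. The set was drawn from known MYC biology, with earlier results of these data in view, and many of its genes also serve ribosome assembly and mitochondria.

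Against the parental line 37 of the same 66 targets (56.1%) were lower and 16 (24.2%) higher in the EGFP clone, where 37.7% and 37.8% of all genes were. In the ALDH1B1 clone 27 (40.9%) were lower and 27 higher, near the background of 37.4% and 38%. CCND2 was at 165 ± 4.91 CPM with DMSO, 5.89 ± 0.480 CPM with EGFP and 3.99 ± 0.315 CPM with ALDH1B1. MTHFD2, a mitochondrial folate enzyme gene, was at 827 ± 20.1, 156 ± 3.87 and 143 ± 8.98 CPM in the same order. SHMT1, a cytosolic folate enzyme gene, went the other way in both clone groups. It was at 22.6 ± 0.965 CPM with DMSO, 85.8 CPM with EGFP and 92.3 ± 3.50 CPM with ALDH1B1.
Of 20 MYC-repressed targets tested in the clone, 6 were higher with EGFP and none lower, with a median of 0.09 and 8.36% of all genes higher. PDGFRB, a growth factor receptor gene that is also on the fibroblast list, rose by 0.93 (SE 0.12; edgeR adjusted p = 0.00012), CDKN1C, a cell cycle inhibitor gene, by 0.40 (SE 0.12) and RND3 by 0.38 (SE 0.06). The count was 3 without ALDH1B1 replicate 2, ALDH1B1 replicate 3 or EGFP replicate 1, and 2 genes became lower without EGFP replicate 3. With the inhibitor none of 18 was called.

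An E-box lay in the promoter window of 25 of 55 MYC-activated targets with a window (45.5%) and of 1 of 13 MYC-repressed targets (7.69%), against 8.77% of all genes. Within the activated targets the counts were set side by side with no test of their difference. In the clone 15 of 25 targets with an E-box were lower, with a median of -0.19, and 14 of 30 without one, with a median of -0.17. With the inhibitor 3 of 25 and 3 of 30 were lower. In the members themselves, MXD4, which holds an E-box, and MXI1, which does not, both rose in the clone, and MNT and MLX, which hold one, did not pass.

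TXNIP and ARRDC4, targets of the MLX and MondoA dimer, changed in opposite directions in the 2 comparisons. TXNIP, which encodes the thioredoxin-interacting protein, rose by 0.51 (SE 0.05; edgeR adjusted p = 3.1e-05) in the EGFP clone, from 90.4 ± 6.34 to 128 ± 1.86 CPM, and fell by 0.39 (SE 0.05; edgeR adjusted p = 0.00031) with the inhibitor, from 173 ± 5.31 to 133 ± 2.78 CPM. Its arrestin-family relative ARRDC4 rose by 0.46 (SE 0.10) and fell by 0.41 (SE 0.08). The differences between the comparisons were 0.88 (SE 0.07; edgeR adjusted p = 2.9e-07) for TXNIP and 0.84 (SE 0.13; edgeR adjusted p = 0.00043) for ARRDC4. MLX itself was not called in either comparison. Of the other targets tested, the lipogenic enzyme genes FASN and ACLY were lower in the clone, at -0.25 (SE 0.04) and -0.12 (SE 0.04). That makes 2 of 9 higher and 2 of 9 lower there, where 8.36% and 9.22% of all genes were. With the inhibitor 2 of 9 were lower, where 2.1% of all genes were, and these counts rest on few genes.

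**Figure D5:**
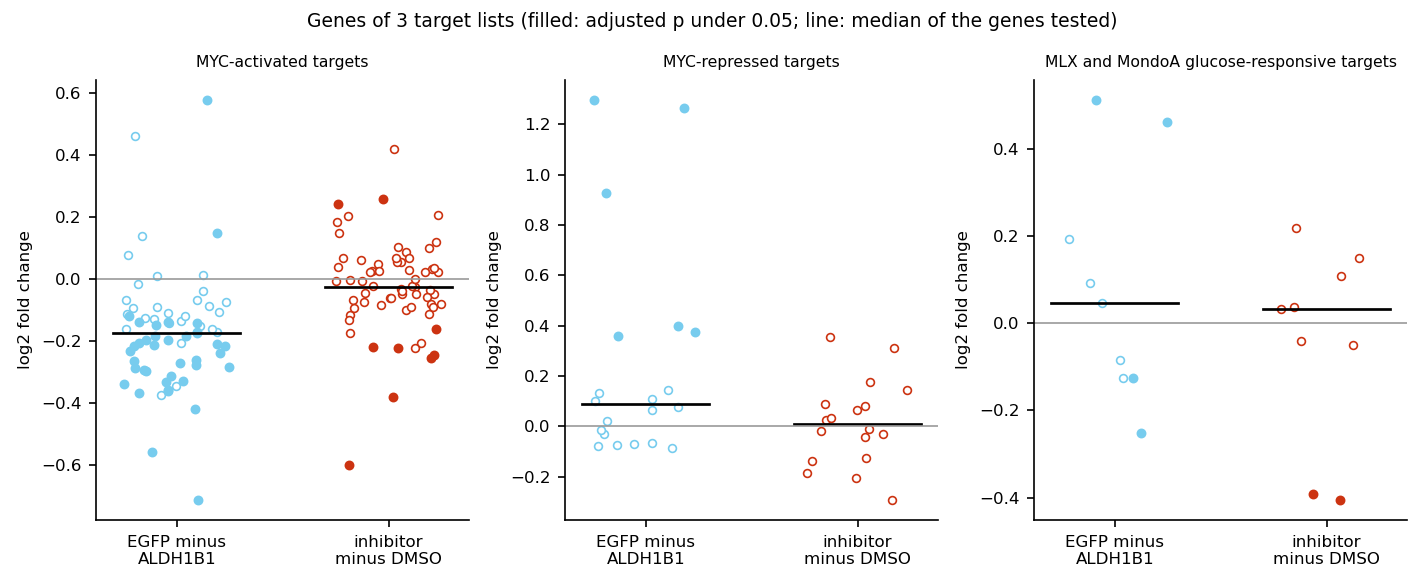
Log2 fold change of each tested gene of 3 target lists for EGFP minus ALDH1B1 in the clone and inhibitor minus DMSO in the parental line, with filled points past an edgeR adjusted p of 0.05 and a line at the median. The MYC-activated targets sit mostly below 0 in the clone (36 lower, median -0.17), and TXNIP and ARRDC4 are the 2 filled points above 0 in the clone and below 0 with the inhibitor.

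The genes whose profile over the 12 libraries was most like that of MYC were ranked by the root mean square difference between log2(CPM + 1) values, each gene centred on its own mean, among 11453 genes averaging at least 5 CPM. FHL2, which encodes a LIM-domain cofactor, was nearest at 0.0820, followed by RBCK1, a subunit gene of a linear ubiquitin ligase, at 0.0824, RP9 at 0.0907, AC104024.2 at 0.0907 and INAVA at 0.0940. FHL2 was at 32.2, 31.9, 139 and 132 CPM in the clone with ALDH1B1, the clone with EGFP, DMSO and the inhibitor, and RBCK1 at 100.0, 102, 463 and 448 CPM. RP9, AC104024.2 and INAVA were ranked by the same measure, and 75.5% of all genes tested differed between the EGFP clone and the parental line.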

How the data were processed

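Per the labels' protocols, oligo(dT)-selected RNA went into NEBNext Ultra II libraries, 3 in each of 4 groups. Listed in the submitters' processing notes are hg38, STAR, fastp and DESeq2; which program counted reads, with which annotation and strand setting, is not given in the sources. The deposited tables hold read counts as whole numbers, per the file headers, for 29667 genes in the clone and 30478 in the parental line, 26814 in both, each with at least 2 reads. The log2 fold changes and adjusted p-values of the authors' deposited tables were only set beside those made here, and 24 normalised columns were not used. The lengths of all 33331 genes equal those of GENCODE 29, which gave coordinates and exon overlap.

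The main test, over all genes, was the quasi-likelihood test of edgeR 4.0.16 (R 4.3.3; TMM, filterByExpr, Benjamini-Hochberg adjustment, threshold 0.05). Each comparison within a line used its own 6 libraries. The difference of the comparisons and the clone against the parental line used 12 libraries and genes listed in both tables. An inhibitor column with no replicate number counted as the third library of that group. Same-numbered libraries did not deviate together, with correlations from -0.0263 to 0.0198, so the numbers were not used as pairs. The members and gene lists were chosen with earlier results of these data known. Named genes were the members and the 5 genes most like MYC. From each list came the 3 largest called changes whose groups did not overlap and whose mean reached 5 CPM. Also named were genes said to be picked after their values, neighbours of MYC and some, not all, list members where a count was 5 or fewer. Results of 2 listed genes are not reported here.

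Counts were simulated with 1.5-fold and 2-fold changes in genes averaging at least 5 CPM. Of the 1.5-fold changes, 99% were recovered for the clone comparison (17175 genes), 97% for the inhibitor (17541 genes) and 92% for the difference (18571 genes). Over both sizes together, 11 of 210, 15 of 212 and 15 of 207 calls were false. Smaller changes, such as those of most members called within a line, were not simulated. Tried as alternatives were DESeq2 1.42.0, size factors by relative log expression, no filter, a replicate block, 1 fit over 12 libraries, each library left out, and an offset (mgcv 1.9.3) for transcript length and GC content, which for the comparisons over 12 libraries was chosen after seeing the data.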

Additional observations from a re-analysis of the deposited data

Results flagged for a closer look

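These genes of the network or its lists are a part of those with an edgeR Benjamini-Hochberg adjusted p under 0.05 for the difference. That difference is the effect of EGFP over ALDH1B1 in the clone minus the effect of the inhibitor over DMSO. Positive differences were seen for TXNIP at 0.88, ARRDC4 at 0.84, MXD4 at 0.40 and RND3 at 0.39. TXNIP and ARRDC4 were called in opposite directions in the 2 comparisons, and MXD4 was called higher in both, at 0.67 and 0.24. Negative differences were seen for RUVBL1 at -0.41 and RUVBL2 at -0.39, HCFC1 at -0.32, RRP9 at -0.40 and HSPE1 at -0.36. Of these, HSPE1 was called lower in both comparisons, at -0.71 and -0.38, and the other 4 only in the clone. Also negative were 2 regulators of MYC stability, STUB1 at -0.50 and PPP2R1A at -0.30, and both were called higher with the inhibitor. Further list genes passed in both directions, among them CCND2 at 0.64 and PHB at -0.50, named after their values were seen. PHB was called in opposite directions too, at -0.23 in the clone and 0.24 with the inhibitor.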

How the results depend on the processing

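With each library left out in turn, called genes ranged from 1371 to 3951 in the clone, from 171 to 832 with the inhibitor and from 392 to 1003 for the difference, called members from 0 to 1 with the inhibitor and from 1 to 2 for the difference. With the inhibitor, 1402 genes were called without the filter on low counts and 347 on the libraries of the block without the replicate block. The members called with the inhibitor were 0 with the replicate block, 0 on the same libraries without it and 1 with the offset for transcript length and GC content, and 2 were called for the difference with that offset. As a replicate block the library numbers gave 3563 called genes in the clone and 549 with the inhibitor, where the block left out the library with no number, and they changed no member call in the clone. Signs turned only for changes far from the threshold. With the inhibitor MLX was -0.00027 on the libraries of the block, and with libraries left out MLX ran from -0.0013 to 0.078, MYC from -0.060 to 0.027 and MXD3 from -0.16 to 0.017. In the clone MXD3 ran from -0.13 to 0.016. For the difference MXD3 was 0.0092 with relative log expression size factors, 0.021 without the filter, 0.0042 with DESeq2 and 0.11 with the offset, and with libraries left out it ran from -0.094 to 0.095, while MGA ran from -0.021 to 0.14. The cause was not tested. In all, 683 of 730 member values kept their direction and their side of the threshold, 19 lost the call, 9 gained it and 19 turned sign, and 121 of 146 counts of genes or members stayed within 1.5 times, as did 1039 of 1140 list counts. The lowest members, MYCL and MXD1, rest on 208 to 457 reads per clone library, which limits the size of change that could be seen in them.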

Other observations

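Germline genes that MGA and PRC1.6 bind in mouse were little expressed, and 8 of 15 listed genes were tested in the clone. TDRKH, which encodes a piRNA pathway protein, was higher with EGFP at 0.26 (SE 0.07; edgeR adjusted p = 0.02), from 24.0 ± 1.21 to 28.5 ± 2.23 CPM (SD, n = 3), a call lost without ALDH1B1 replicate 2 or 3, and none of 7 tested was called with the inhibitor. Against the parental line 6 of 9 were higher and 1 lower in the EGFP clone, where 37.8% and 37.7% of all genes were, and 4 (44.4%) higher and 1 (11.1%) lower in the ALDH1B1 clone, where 38% and 37.4% of all genes were.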
